A study of Mus musculus with 2 samples.

Results

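The genes described here are 10 members of the Sox family of transcription factors, Sox1, Sox2, Sox4, Sox5, Sox6, Sox8, Sox9, Sox10, Sox11 and Sox21, looked up by symbol in the GENCODE M1 annotation of the mm9 genome. The annotation held 9 of the 10 symbols. Sox1 is not a symbol of this annotation and was placed by sequence, as described further on, so that counts are given without it first and with it second. An R-loop peak was assigned to a gene when it overlapped the gene by at least 1 bp or lay within 10 kb of it, which gave 23 of the 22132 peaks in the list at the genes with a symbol and 26 peaks with Sox1. Among the 9 genes, 3 were classed as single-exon because the transcript with the longest coding sequence has 1 exon (Sox2, Sox4 and Sox11), 2 as long because the gene spans at least 100 kb (Sox5 and Sox6), and the other 4 as intermediate (Sox8, Sox9, Sox10 and Sox21).

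R-loops, in which RNA is paired with 1 strand of the DNA and the other strand is displaced, were mapped in primary neural stem/progenitor cells (NSPCs) cultured from the frontal brain of C57BL/6 mice at postnatal day 7. The cells had been kept in 0.5 μM aphidicolin, an inhibitor of DNA polymerases that causes mild replication stress, for 48 h. This treatment is known from the methods and is not in the sample labels. In DRIP-seq, genomic DNA is cut with restriction enzymes, and fragments that carry RNA:DNA hybrids are pulled down by the S9.6 antibody and sequenced. The values come from 1 list of peak positions with no signal, score or read count, so there is no error between replicates, the depth behind each peak is unknown, and no test was made between genes. The input library was not analysed here. The list does not record the DNA strand on which the RNA lies, and no measure of transcription or expression was analysed for these genes.

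Sox proteins bind the minor groove of DNA through a domain called the HMG box and bend it. Sox1 and Sox2 (SoxB group) hold neural progenitors in an undifferentiated state and the related Sox21 acts against them, whereas Sox4 and Sox11 (SoxC group) are known for the differentiation of neurons. Sox5 and Sox6 (SoxD group) lack an activation domain of their own and shape neuronal subtypes and the oligodendrocyte lineage. Sox8, Sox9 and Sox10 (SoxE group) act in glia, with Sox9 needed in neural stem cells and astrocytes and Sox10 in oligodendrocytes.

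The same 60 bases near the start of the HMG box are shown for each gene on its coding strand, because they present the stretch of DNA that all 10 genes share and that lay under a peak in some of them only. Capitals mark the 29 bases that are identical in all 10 genes, and 13 of the 20 codons encode the same amino acid in each. In Sox1 (plus strand of mm9 chr8:12396505-12396564), Sox2 (plus strand of chr3:34549458-34549517), Sox4 (minus strand of chr13:29044663-29044722), Sox9 (plus strand of chr11:112644205-112644264), Sox11 (minus strand of chr12:28027076-28027135) and Sox21 (minus strand of chr14:118634783-118634842), all 60 bases lay under a peak. In Sox5 (minus strand of chr6:143789746-143789805), Sox6 (minus strand of chr7:122633229-122633288), Sox8 (minus strand of chr17:25707120-25707179) and Sox10 (minus strand of chr15:78993784-78993843), 0 of the 60 bases did. Each stretch lies within a coding exon.
Sox1: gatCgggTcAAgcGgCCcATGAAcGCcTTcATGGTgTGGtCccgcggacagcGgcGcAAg
Sox2: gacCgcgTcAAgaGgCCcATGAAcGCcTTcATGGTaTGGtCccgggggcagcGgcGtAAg
Sox21: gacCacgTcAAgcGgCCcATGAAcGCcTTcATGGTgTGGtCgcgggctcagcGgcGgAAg
Sox4: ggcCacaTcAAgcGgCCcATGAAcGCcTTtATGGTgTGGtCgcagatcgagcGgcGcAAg
Sox11: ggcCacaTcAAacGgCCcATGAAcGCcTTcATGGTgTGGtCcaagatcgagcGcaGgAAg
Sox9: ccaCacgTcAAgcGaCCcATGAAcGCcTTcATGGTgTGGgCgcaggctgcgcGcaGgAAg
Sox8: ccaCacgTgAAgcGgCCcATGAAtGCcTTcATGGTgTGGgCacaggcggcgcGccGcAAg
Sox10: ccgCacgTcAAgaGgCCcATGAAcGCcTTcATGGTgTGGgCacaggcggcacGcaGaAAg
Sox5: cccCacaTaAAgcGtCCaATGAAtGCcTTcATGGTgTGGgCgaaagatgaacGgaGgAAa
Sox6: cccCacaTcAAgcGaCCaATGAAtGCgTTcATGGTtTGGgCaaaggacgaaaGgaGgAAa

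Peaks overlapped 7 of the 9 Sox genes found by symbol, all but Sox8 and Sox10, compared to 39.6% of the 22367 protein-coding genes. The same 7 genes had a peak within 10 kb, compared to 51.3% of protein-coding genes. The transcription start site (TSS), taken as the 5′ end of the annotated gene, lay inside a peak in 5 of the 9 (Sox2, Sox4, Sox9, Sox11 and Sox21), compared to 14.9% of protein-coding genes. With Sox1, the counts were 8 of 10 genes with a peak and 6 of 10 with the TSS inside it. Peaks covered 51.6 to 95.5% of these 5 genes, and about 1% of Sox5 and Sox6. They covered 100% of Sox1, which was measured only from its TSS to its stop codon.

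**Figure D1:**
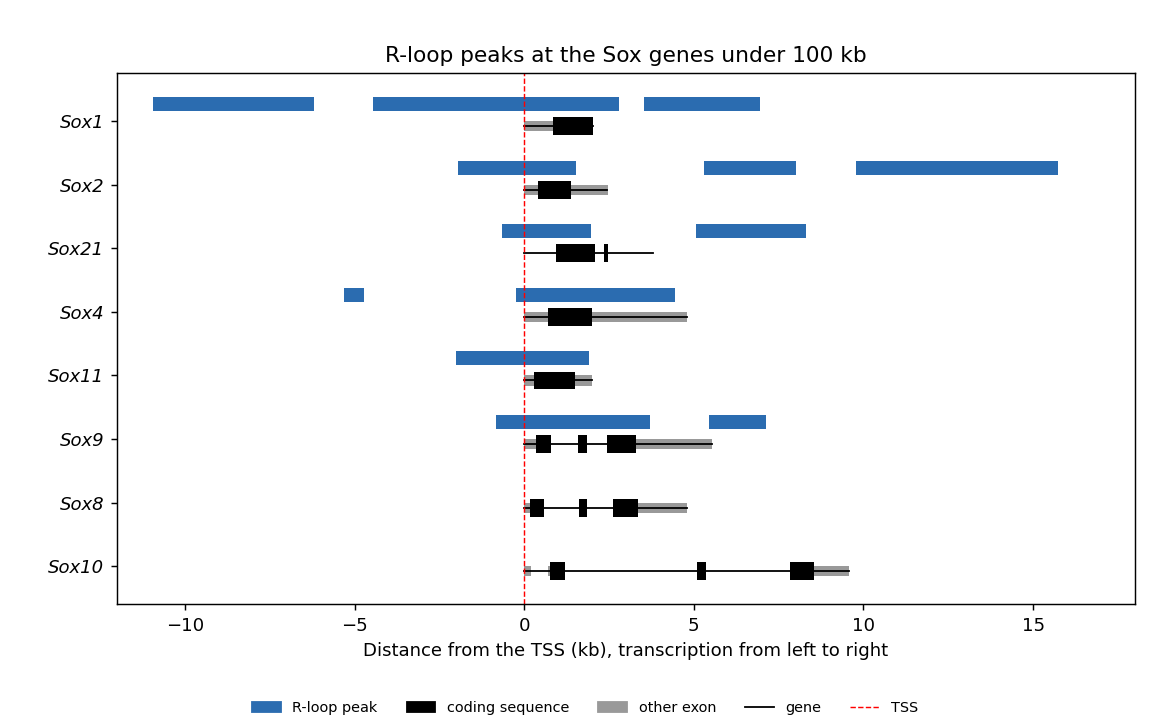
R-loop peaks (blue) around the 8 Sox genes under 100 kb, drawn from the TSS (red dashed line, distance in kb) with transcription from left to right, above the gene (line), its other exons (grey) and its coding sequence (black). The TSS and most of the coding sequence of 6 genes lie under a peak, 4 of these genes have a further peak over the position 6 kb after the TSS, and Sox8 and Sox10 have none. The peaks at the Sox2 TSS are 2 peaks that are 1 bp apart.

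Sox1 was found by the 300 bases around its RefSeq start site (GRCm38.p6), which matched the mm9 sequence once, on the plus strand of chromosome 8 with the TSS at position 12395519. The longest open reading frame that follows within the RefSeq length of the gene has 391 codons, from position 12396361 to 12397533. This place lies within Gm5607, an annotated protein-coding gene of 51.0 kb on the same strand that held 3 peaks. The peak at chr8:12391059-12398317 is 7.26 kb wide, wider than 95.6% of all peaks, and reached from 4.46 kb before the TSS to 2.80 kb after it. It covered 100% of the 2.02 kb from the TSS to the stop codon, and the 3′ UTR was not included in this share. A peak of 4.72 kb ended 6.20 kb before the TSS and another of 3.43 kb started 3.54 kb after it, so Sox1 had 3 of the peaks of Gm5607 within 10 kb. Sox1 was the only one of the 10 genes with peaks before, over and after the gene, each wider than 3 kb.

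Sox2 (ENSMUSG00000074637, chr3:34548927-34551383, plus strand) spans 2.46 kb, and 61.8% of it lay under 2 peaks. The peak at chr3:34546978-34549221 (2.24 kb) held the TSS and ended 0.294 kb after it. The peak at chr3:34549223-34550446 (1.22 kb) began after a gap of 1 bp, held the whole coding sequence and had a GC content of 65.6%, higher than 98.4% of all peaks. The nearest restriction sites of the edges facing this gap were 163 and 161 bp away. In the whole list, 305 pairs of neighbouring peaks were 1 bp apart and 54 pairs were 2 to 100 bp apart. Past the 3′ end of the gene, peaks of 2.73 and 5.95 kb began 5.29 and 9.77 kb after the TSS. The 3′ end of Sox2 from 1.52 kb after the TSS onward lay outside all peaks. Sox2 lies inside Sox2ot, a long noncoding RNA gene of 578.2 kb on the same strand, which overlapped all 4 of these peaks and held 6 peaks in all, covering 2.29% of it.

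Sox21 (ENSMUSG00000061517, chr14:118632454-118636252, minus strand) is related to Sox1 and Sox2 in its HMG box. The annotation gives it transcripts with 1 coding exon and, for the longest coding sequence, with 2 exons, so that the class of the gene depends on the transcript. Its peak at chr14:118634292-118636913 (2.62 kb, GC content 64.7%) reached from 0.661 kb before the TSS to 1.96 kb after it and covered 51.6% of the gene and 81.7% of the coding sequence. The uncovered coding bases lay at the 3′ end. This peak also held the TSS of Gm4675, a noncoding RNA gene on the opposite strand. A peak of 3.23 kb began 1.27 kb past the 3′ end of Sox21.

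Sox4 (ENSMUSG00000076431, chr13:29040788-29045582, minus strand) had 92.7% of its 4.80 kb under 1 peak of 4.69 kb, at chr13:29041138-29045831. The peak began 0.249 kb before the TSS and continued for 4.44 kb after it, over the coding sequence and most of the noncoding 3′ part of the exon. It also overlapped Gm17419, a noncoding RNA gene on the opposite strand whose own TSS lay outside the peak. A narrower peak of 0.605 kb with a GC content of 64.6% lay 4.71 kb before the TSS.

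Sox11 (ENSMUSG00000063632, chr12:28025562-28027574, minus strand) had 95.5% of its 2.01 kb under a peak of 3.94 kb, at chr12:28025652-28029594. This peak extended about as far before the TSS (2.02 kb) as after it (1.92 kb), so its midpoint lay outside the gene. Sox4 and Sox11, the SoxC genes, thus had the highest covered shares of the genes found by symbol. The next peak beyond 10 kb was 259.9 kb from Sox4 and 108.9 kb from Sox11.

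Sox9 (ENSMUSG00000000567, chr11:112643538-112649074, plus strand), which has 3 exons, had 68.6% of its 5.54 kb covered. The peak at chr11:112642704-112647238 (4.54 kb) reached from 0.834 kb before the TSS to 3.70 kb after it and held all 3 coding segments. It also held the TSS of BC006965, a long noncoding RNA gene on the opposite strand, 248 bp from that of Sox9. A peak of 1.70 kb began 95 bp before the 3′ end of Sox9 and extended past it.

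Sox8 (ENSMUSG00000024176, chr17:25702837-25707631, minus strand) and Sox10 (ENSMUSG00000033006, chr15:78985343-78994920, minus strand) had no peak within 10 kb. The peak nearest to Sox8 was 50.2 kb away in Lmf1, and it was 0.925 kb wide. The peak nearest to Sox10 was 17.5 kb away and 7.00 kb wide, over Micall1 and 1700088E04Rik. Within 50 kb of the TSS, the list held 0 peaks around Sox8 and 1 around Sox10, compared to a median of 1 over all protein-coding genes. Within 500 kb of the TSS, the list held 36 peaks around Sox10 and 29 around Sox8, the highest numbers of the 10 genes, compared to a median of 14 over all protein-coding genes. The covered genes had fewer, with 19 around Sox21, 11 around Sox1, 8 each around Sox2 and Sox9, 4 around Sox4 and 3 around Sox11, and the long genes had 9 each. Sox8 and Sox9 have the same arrangement of 3 coding segments, 4.80 and 5.54 kb of gene and aligned HMG boxes with 96.5% of residues identical, but only Sox9 had a peak.

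To place the short genes beside the genome, the reach of the peak on either side of the TSS was compared. Over the 3325 protein-coding genes with the TSS in a peak, the median reach was 0.902 kb before the TSS and 1.47 kb after it, and 64.6% reached further after the TSS than before it. Of the Sox genes, Sox4, Sox9 and Sox21 reached further after the TSS, and Sox1, Sox2 and Sox11 further before it, with the peak that holds the Sox2 TSS taken without its neighbour. The position 1 kb after the TSS lay in a peak in 6 of the 8 Sox genes under 100 kb (75%) and in 12.4% of protein-coding genes. The position 6 kb after the TSS, a distance chosen after the values were seen, lay in a peak in 4 of the 8 (Sox1, Sox2, Sox9 and Sox21) and in 7.11% of protein-coding genes. In these 4 Sox genes this position lies past the 3′ end of the gene, whereas protein-coding genes have a median length of 15.4 kb. Over single-exon protein-coding genes, the shares were 4.57% at 1 kb and 2.68% at 6 kb.

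**Figure D2:**
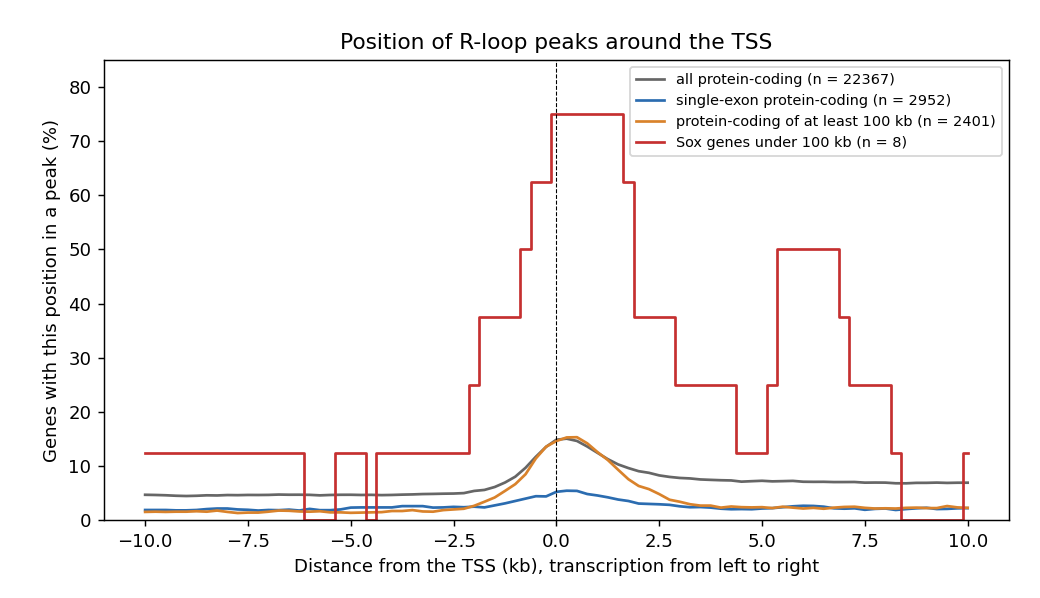
Share of genes (%) in which a position lies inside an R-loop peak, by its distance from the TSS (kb), for all protein-coding genes (grey), single-exon ones (blue), those of at least 100 kb (orange) and the 8 Sox genes under 100 kb with Sox1 (red steps). The Sox genes reach 75% from the TSS to 1.5 kb after it and 50% again at 6 kb, whereas all protein-coding genes reach 14.9% at the TSS.

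Among the 2952 single-exon protein-coding genes of the annotation, 6.50% had a peak in the gene and 5.25% the TSS in a peak, and all 3 single-exon Sox genes had both. Of these single-exon genes, 40.2% are olfactory, vomeronasal or taste receptor genes by their symbols. The median covered share of the 3 single-exon Sox genes was 92.7%, compared to a median of 0% over the class and 80.6% over the genes of the class with a peak. Of all single-exon genes, 2.95% were covered to at least 90%, a share that includes Sox4 and Sox11.

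Sox5 (ENSMUSG00000041540, chr6:143776945-144730497, minus strand) spans 953.6 kb and held 9 peaks, which covered 1.04% of it. Sox6 (ENSMUSG00000051910, chr7:122614858-123182258, minus strand) spans 567.4 kb and held 3 peaks, which covered 1.08% of it. The annotated TSS of neither gene lay in a peak. Of the 2401 protein-coding genes of at least 100 kb, 63.8% had a peak in the gene and 14.6% had the TSS in a peak. The class had a median of 0.552 peaks per 100 kb, compared to 0.944 for Sox5 and 0.529 for Sox6, and a median covered share of 0.346%. Over the genes of the class with a peak, the medians were 1.07 peaks per 100 kb and 1.23% covered, above the values of both Sox5 and Sox6. The genes of this class are mostly shorter than Sox5 and Sox6, with a median length of 166.9 kb. At least 9 peaks were found in 5.21% of these genes and at least 3 in 28.8%. Among the 200 protein-coding genes of at least 500 kb, a limit chosen after the values were seen, the median was 2 peaks, 9% held at least 9 peaks, and 14% were covered to at least 1%, as Sox5 and Sox6 were. Those of the 200 genes with a peak had medians of 0.325 peaks per 100 kb and 0.227% covered, below the values of both Sox5 and Sox6.

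**Figure D3:**
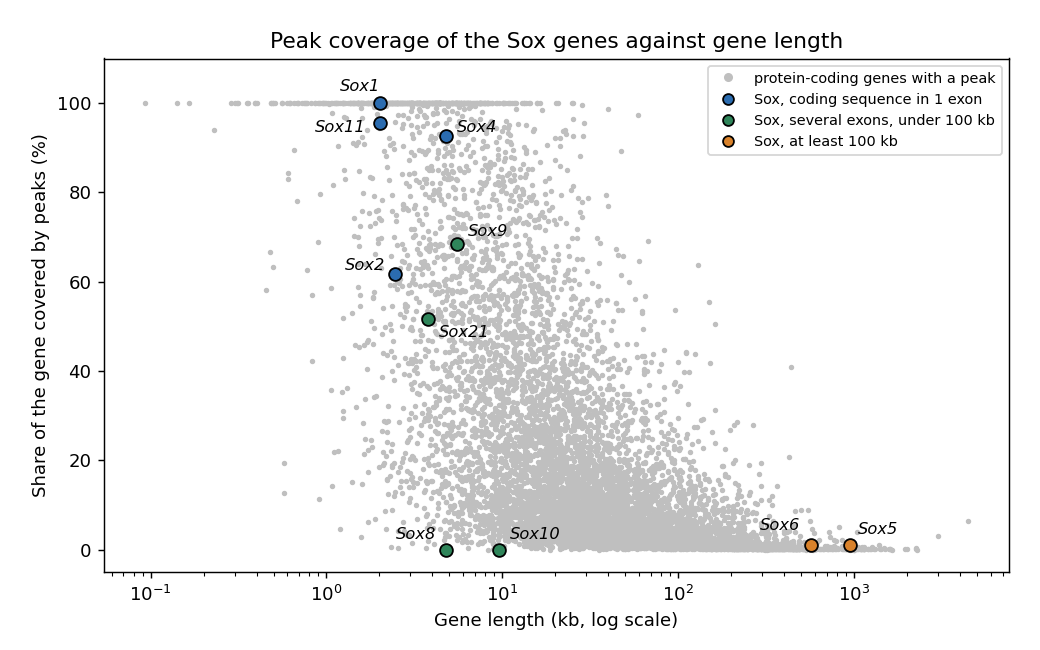
Share of the gene covered by R-loop peaks (%) against gene length (kb, log scale) for protein-coding genes with a peak (grey) and the 10 Sox genes, coloured by class, with Sox1 drawn from its TSS to its stop codon. The Sox genes whose TSS lay in a peak are under 6 kb long and covered to 51.6 to 100%, Sox5 and Sox6 are covered to about 1%, and Sox8 and Sox10 lie at 0.

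The peaks of Sox5 were spread over the gene and most were narrow, with 2 of 9 at least 1 kb wide. The TSS of the annotated gene, at position 144730497, belongs to a noncoding transcript, and the nearest peak was 23.2 kb downstream of it. The coding transcripts start 572.4 kb or more from this TSS. The limits of Sox5-001, which spans 381.1 kb, held 3 of the 9 peaks, and these covered 1.69% of it. The other Sox5 peaks lay upstream of the starts of all coding transcripts. The peak at chr6:144158337-144158914 (0.578 kb) ended 259 bp upstream of the start of Sox5-005 and Sox5-201 and 337 bp upstream of that of Sox5-001, which has the longest coding sequence. Of the 8 coding transcripts, 4 start next to this peak and the other 4 start about 55.8 kb from the nearest peak. The widest peak, of 4.56 kb at chr6:143779481-143784037, lay at 99.5% of the length of the gene. It held 518 of the 2289 coding bases (22.6%). The HMG box of Sox5 is split between 2 coding exons, and this peak held 137 of the 258 bases of the aligned part of the box, those in the downstream exon. The other 8 peaks had no coding bases, and 1 of them also overlapped Gm15686, a noncoding gene on the opposite strand.

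In Sox6, 2 of 3 peaks were at least 1 kb wide and all 3 lay in introns. The peak at chr7:123175993-123178816 (2.82 kb) lay between the starts of the coding transcripts Sox6-204 and Sox6-202, 3.44 kb after the first and 1.43 kb before the second. It had a GC content of 54.5% and overlapped 1110006G14Rik, an annotated gene on the opposite strand. The start of Sox6-201, which has the longest coding sequence, was 37.4 kb from this peak. The peaks at chr7:122646094-122648413 (2.32 kb) and chr7:122624297-122625279 (0.983 kb) lay at 94.3 and 98.3% of the length of the gene. The aligned part of the Sox6 HMG box was 4.86 kb from the nearest peak. The other 2 coding transcripts, Sox6-203 and Sox6-205, start 186.4 and 207.8 kb from the nearest peak.

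**Figure D4:**
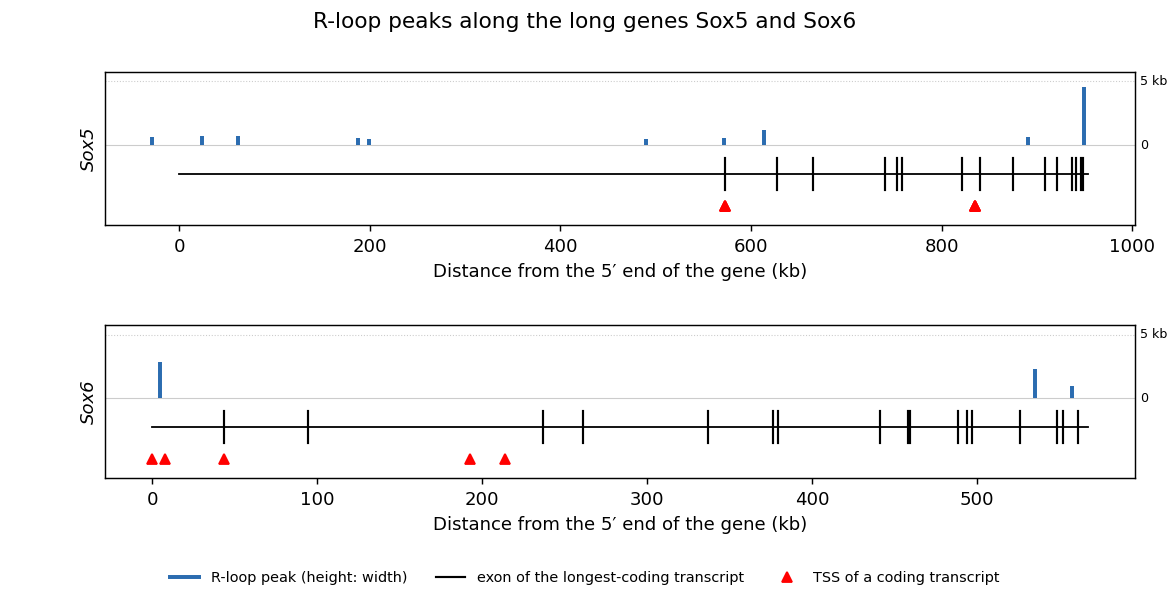
R-loop peaks (blue bars, height gives the width of the peak on a scale from 0 to 5 kb) along Sox5 and Sox6, by distance from the 5′ end of the gene (kb), above the exons of the transcript with the longest coding sequence (black) and the starts of coding transcripts (red triangles). Sox5 has 9 peaks within the gene and 1 more upstream of it, Sox6 has 3, and the widest peak of Sox5 lies at its 3′ end.

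The HMG box was followed through all 10 genes by aligning the translated coding sequences, which gave 86 residues, or 258 bases, without a gap. All 258 bases lay under a peak in Sox1, Sox2, Sox4, Sox9, Sox11 and Sox21, 53.1% did in Sox5 and 0% in Sox6, Sox8 and Sox10. Within groups, 80.6 to 87.6% of the bases were identical, and between groups 50.8 to 70.2%. In the SoxE group, the bases under a peak in Sox9 were 84.5% identical to those without one in Sox8 and 81.8% identical to those without one in Sox10. Sox5 and Sox6 shared 81.8%. Among these 10 genes, the box was covered in each SoxB and SoxC gene, while SoxD and SoxE each held a gene in which it was at least partly covered and a gene in which it was not.

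Base composition was compared over the first 1 kb after the TSS, since R-loops are known to form where the RNA is rich in G. GC skew is the number of G minus that of C in the coding strand, as a share of both. Over protein-coding genes, the median GC content of this window was 53.4% and the median skew 0.04, and over those with the TSS in a peak they were 60.4% and 0.06. The 6 Sox genes with the TSS in a peak had a GC content of 63.7 to 69.7%. Sox8 (63.3%) and Sox10 (65.5%), which had no peak, were close to this range or within it, whereas Sox5 (58.1%) and Sox6 (42.7%) were lower.

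GC skew over this window varied among the Sox genes with the TSS in a peak. It was 0.09 in Sox11, 0.05 in Sox4 and Sox2 and 0.01 in Sox9, and it was negative in Sox21 (-0.09) and Sox1 (-0.14). Sox8, with no peak, had the same skew as Sox11 (0.09), and Sox10 had 0.07. At the 5′ ends of the Sox5 and Sox6 genes, the skew was -0.04 and -0.15. At the starts of their transcripts with the longest coding sequence, Sox5-001 and Sox6-201, it was 0.04 and 0.20, and these starts also lay outside peaks. The values of the genes with and without a peak at the TSS therefore overlapped, and a relation of skew to peaks was not tested.

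**Figure D5:**
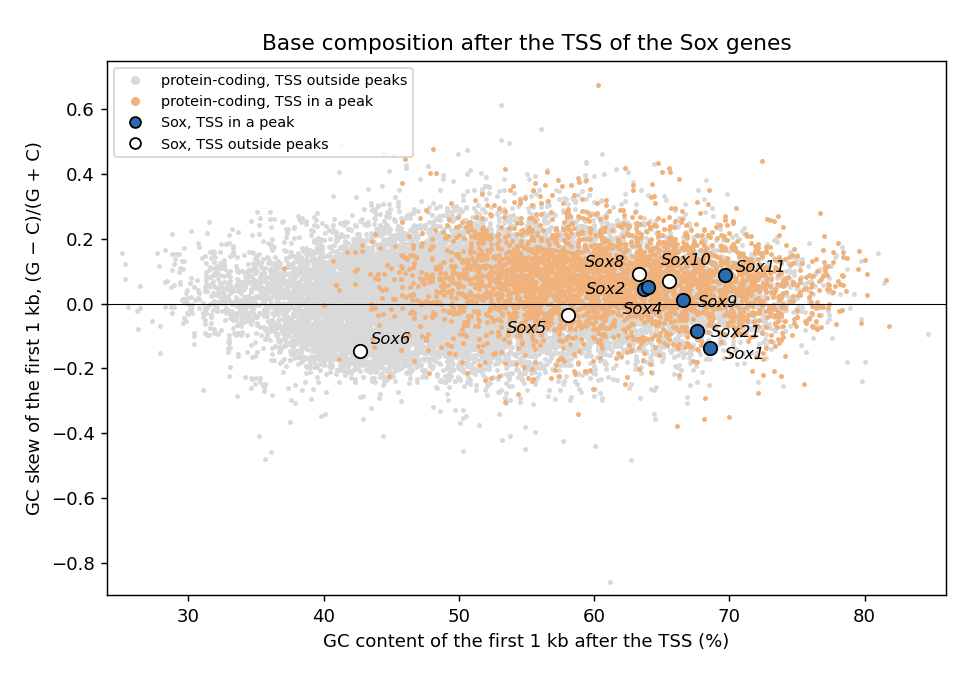
GC skew against GC content (%) of the first 1 kb after the TSS, for protein-coding genes with the TSS outside (grey) or inside (orange) a peak and for the 10 Sox genes (filled: TSS in a peak; open: outside). Sox8 and Sox10, open, lie near the filled Sox genes, and Sox1 and Sox21, filled, lie below a skew of 0.

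Runs of G are shown for the 8 Sox genes under 100 kb, because the coding sequences of genes with and without a peak hold them. Each is the stretch of 60 bases within a coding exon where G outnumbers C the most on the coding strand, and capitals mark runs of at least 3 G. The stretches under a peak are those of Sox1 (plus strand of chr8:12396798-12396857, 37 G and 14 C), Sox2 (plus strand of chr3:34549745-34549804, 33 G and 13 C), Sox21 (minus strand of chr14:118634487-118634546, 30 G and 21 C), Sox4 (minus strand of chr13:29044367-29044426, 32 G and 18 C), Sox11 (minus strand of chr12:28026729-28026788, 32 G and 18 C) and Sox9 (plus strand of chr11:112646033-112646092, 26 G and 12 C). Those without a peak are in Sox8 (minus strand of chr17:25707298-25707357, 32 G and 15 C) and Sox10 (minus strand of chr15:78989661-78989720, 30 G and 13 C).
Sox1: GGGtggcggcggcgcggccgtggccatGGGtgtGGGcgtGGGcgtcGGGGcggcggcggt
Sox2: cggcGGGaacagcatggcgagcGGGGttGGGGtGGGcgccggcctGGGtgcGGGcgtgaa
Sox21: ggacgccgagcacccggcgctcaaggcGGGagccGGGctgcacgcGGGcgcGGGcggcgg
Sox4: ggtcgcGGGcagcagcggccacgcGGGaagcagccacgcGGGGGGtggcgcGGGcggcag
Sox11: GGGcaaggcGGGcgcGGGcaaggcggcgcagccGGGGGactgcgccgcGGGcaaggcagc
Sox9: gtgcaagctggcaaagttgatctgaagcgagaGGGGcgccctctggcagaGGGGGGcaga
Sox8: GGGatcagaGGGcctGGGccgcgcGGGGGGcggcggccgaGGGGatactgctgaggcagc
Sox10: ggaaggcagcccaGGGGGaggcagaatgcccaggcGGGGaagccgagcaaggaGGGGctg
The bases in such runs numbered 10 to 20 in the 6 genes under a peak, lowest in Sox9 and highest in Sox2, and 19 in Sox8 and 13 in Sox10, so the values of the genes with and without a peak overlapped. G outnumbered C the most in Sox1 and Sox2 and the least in Sox21, and Sox8 and Sox10 lay between them.

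The peaks that held the TSS of a short Sox gene differed in width and base composition from the peaks in Sox5 and Sox6. None of the latter held the annotated TSS, so position and kind of gene cannot be told apart here. All 14 peaks at the short genes with Sox1 had a median width of 3.33 kb and a median GC content of 55.4%. The 6 peaks that held the TSS of a Sox gene had a median width of 4.24 kb and a median GC content of 57.3%, compared to 2.71 kb and 55.4% for the 2875 peaks that held the TSS of any protein-coding gene. The 12 peaks in Sox5 and Sox6 had a median width of 0.707 kb and a median GC content of 45.4%, compared to 1.18 kb and 48.2% for the 5292 peaks in genes of at least 100 kb. The CpG dinucleotide, which is depleted outside CpG islands, had a median observed over expected ratio of 0.79 in the former 6, compared to 0.59 for peaks with any protein-coding TSS, and of 0.13 in the latter 12, compared to 0.20 for peaks in genes of at least 100 kb. Over all peaks it was 0.21.

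Several peaks in Sox5 and Sox6 were purine-rich on 1 strand. Over all peaks, the share of purines (A and G) on the strand with more of them had a median of 52.6%, and 10% of peaks exceeded 65.5%. This value was exceeded by 5 of the 12 peaks in the long genes and by 0 of the 14 peaks at the short genes with Sox1. The purine share was 74.7, 83.8, 86.2 and 87.5% in 4 intronic peaks of Sox5 and 74.1% in the Sox6 peak at chr7:122646094-122648413. The Sox5 peak with 74.7% lay in an intron of Sox5-001, and the other Sox5 peaks with such shares lay upstream of all coding transcript starts. In all 4 of these Sox5 peaks the purines lay on the template strand, with GC skews of -0.53 to -0.79 on the coding strand. In the Sox6 peak they lay on the coding strand, with a skew of 0.42. Perfect tandem repeats of units of up to 6 bases, over at least 24 bp, were found in 10 of the 12 peaks, compared to 45.8% of the peaks in genes of at least 100 kb, and took up to 47.7% of a peak, in the Sox5 peak at chr6:144668146-144668867. How reads from repeats were treated could bear on these peaks, and its part in them was not tested.

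The 60 intronic bases under any peak of the gene where G most outnumbers C in the coding strand are given for Sox5 (minus strand of chr6:144158598-144158657, 29 G and 1 C) and Sox6 (minus strand of chr7:123176374-123176433, 44 G and 0 C), with runs of at least 3 G in capitals, because in both genes they fell in the peak nearest to the start of a coding transcript.
Sox5: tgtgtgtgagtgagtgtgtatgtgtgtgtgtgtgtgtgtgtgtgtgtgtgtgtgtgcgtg
Sox6: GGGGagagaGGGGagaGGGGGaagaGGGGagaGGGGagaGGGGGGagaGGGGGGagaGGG
The Sox5 stretch is a TG repeat with no run of G, and the Sox6 stretch alternates runs of G with A and G. The Sox5 stretch lies upstream of the starts of all coding transcripts, so it is intronic only by the limits of the annotated gene.

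Because the DNA was cut with 5 restriction enzymes before the precipitation, the edges of the peaks were compared with the sites of these enzymes. Of the 52 edges at the 10 genes, 17 lay within 100 bp of a site (32.7%), compared to 28.3% over all peaks. At the short genes these were 13 of 28 edges (46.4%). For the peaks there that held the TSS these were 5 of 12 edges (41.7%). This compares to 37.7% for peaks that held the TSS of a protein-coding gene. For the peaks outside the short genes these were 7 of 12 edges (58.3%). In the long genes these were 4 of 24 edges (16.7%), compared to 25.6% for peaks in genes of at least 100 kb. The restriction fragment that carried the TSS was covered to between 71.5 and 100% in the 6 genes with the TSS in a peak. It was 0.632 kb long in Sox4, 0.787 kb in Sox2, 2.07 kb in Sox11, 3.08 kb in Sox21, 3.60 kb in Sox9 and 5.36 kb in Sox1. In the genes without a peak at the TSS this fragment was 0.621 kb in Sox6, 0.92 kb in Sox8, 2.02 kb in Sox10 and 2.49 kb in Sox5. The median was 1.53 kb over protein-coding genes and 2.39 kb over those with the TSS in a peak. The part of fragment length in these results was not tested.

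The other 10 Sox family genes of the annotation (Sox3, Sox7, Sox12, Sox13, Sox14, Sox15, Sox17, Sox18, Sox30 and Sry) had fewer peaks. Peaks overlapped 2 of them, compared to 39.6% of protein-coding genes. A peak lay within 10 kb of 3 of them, compared to 51.3% of protein-coding genes. Sox12, the third SoxC gene, was covered to 100% by a peak of 8.41 kb that held its TSS. The TSS of the other 9 lay outside peaks, and 14.9% of protein-coding genes had the TSS in a peak. Sox13, the third SoxD gene, spans 42.1 kb and held 3 peaks over 33.7% of it. Sox3, which belongs with Sox1 and Sox2 and has 1 exon, had 0% covered, and its nearest peak on the X chromosome was 2801 kb away. Its first 1 kb had a GC content of 71.9% and a skew of -0.08, next to 68.6% and -0.14 in the covered Sox1.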

How the data were processed

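DRIP-seq reads were, per the study's methods and labels, trimmed with Trim Galore 0.6.6, aligned to NCBI37/mm9, freed of duplicates and searched for peaks with a Hidden Markov Model. The authors deposited 1 list of 22132 peaks whose values are positions in base pairs (other units, such as a signal, score or depth, are not in it). The study reports libraries from 3 biological replicates, and how these were combined into the list is not given in the sources used here. The input group was not analysed here. The list was compared with the mm9 sequence and GENCODE M1, 22367 of whose genes are protein-coding. An overlap was counted from 1 bp. For Sox4, which has 2 gene entries, the larger was used. Coding sequences were translated and aligned with MAFFT 7.526, and Sox1 was placed with its RefSeq promoter (GRCm38.p6), of which only the sequence was used. Tandem repeats were exact copies. The functions for overlap, coverage and base composition were tested on simulated data. The text names the 10 genes, the genes that share their peaks, and other Sox genes with the largest and smallest covered share. Sox3 was picked from several other Sox genes that tied at 0% covered. These genes, lists and measures were chosen with earlier results of these data known. Alternatives were peaks of at least 1 kb, merged peaks, transcript limits, peak midpoints, other distances and other classes. Python 3.11.15, numpy 2.4.6, pandas 2.3.3, pysam 0.24.0 and matplotlib 3.10.9 were used.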

Additional observations from a re-analysis of the deposited data

How the results depend on the processing

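The counts of Sox genes with a peak changed little between settings. Genes with a peak numbered 7 in each setting except by the peak midpoint, which left 6 without Sox11, genes with a peak nearby were 8 within 50 kb and 7 within 2 kb, and the 5 genes with the TSS in a peak were 5 in each alternative. The median covered share of the single-exon genes went from 92.7 to 53.71% with 2 kb added to each side, to 95.53% with single-exon in every transcript, which left Sox11 alone, and to 77.26% with single-exon in any coding transcript, which adds Sox21 and was chosen after seeing the data. For the long genes, the covered share went from 1.061 to 0.7556% and the peaks per 100 kb from 0.7363 to 0.2811 with peaks of at least 1 kb, and to 1.162% and 0.5846 within the limits of the transcript with the longest coding sequence. The median GC content of the peaks went from 48.26 to 51.44% with peaks of at least 1 kb, 51.85% over pooled bases and 50.48% with Sox1, added after seeing the data. Of the other Sox genes with a peak, 1 instead of 2 was left with transcript limits. No paired analysis was possible because there is 1 list and no test. Signal and depth behind a peak are unknown, so a gene without a peak may hold R-loops that were not called.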

Other observations

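The 10 genes also differed in the distance to the next peak more than 10 kb away. For Sox8 and Sox10, which had no peak within 10 kb, this is the nearest peak already described. The next peak beyond 10 kb of the gene was nearest for Sox1, at 16.6 kb, and farthest for Sox4, at 259.9 kb. It was 17.5 kb away for Sox10, 21.5 kb for Sox2, 28.02 kb for Sox5, 50.2 kb for Sox8, 53.9 kb for Sox6, 76.3 kb for Sox9, 108.9 kb for Sox11 and 112.5 kb for Sox21. For Sox2, Sox4, Sox5, Sox8, Sox9 and Sox11 this next peak was narrower than 1 kb, with widths of 0.817, 0.452, 0.622, 0.925, 0.685 and 0.342 kb. It was 1.201 kb wide for Sox1, 2.52 kb for Sox21, 3.18 kb for Sox6 and 7.00 kb for Sox10.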
